A study of Canis lupus familiaris with 20 samples.

Results

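The genes described here encode subunits of the proteasome and enzymes that attach ubiquitin to proteins, measured in muscle of dystrophic and normal dogs. Members were taken by the gene symbols of the array files. Proteasome members begin with PSMA, PSMB, PSMC, PSMD or PSME, leaving out the interferon-induced subunits PSMB8, PSMB9 and PSMB10. Ubiquitin enzymes and ligases begin with UBE2, FBXO, FBXL, FBXW, KLHL or TRIM, or with CUL and a number. The rule found 154 genes among the 10269 symbols on the array, 31 of the proteasome and 123 ubiquitin enzymes and ligases. Of these, 30 and 76 were bright enough to be tested, among 6120 genes tested in all. A few symbols that fit the rule are not parts of the complex: PSMC3IP is a cofactor of recombination, and PSMD9 and PSMD10 are chaperones that help to assemble the 19S particle.

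The samples were muscle RNA of 10 dogs aged 2 years, hybridised to Agilent canine arrays with 2 colours. The 4 normal dogs were compared with 4 affected dogs and 2 escapers; affected dogs and escapers alike are labelled with Duchenne muscular dystrophy, the disease caused by loss of dystrophin. Escapers are dystrophic dogs with a mild course. Each dog was measured on 2 arrays, once in each dye, against the same RNA of 1 normal individual. The labels name neither the muscle nor the dystrophin mutation, and each slide held the arrays of 2 dogs of 1 group, so the escapers and their slide cannot be told apart. All values below are log2 ratios of a dog over that reference, or differences between such ratios. The dog is the replicate, and dogs are numbered within each group.

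The proteasome is the large protease that takes apart proteins marked with ubiquitin. Its barrel-shaped 20S core is built of alpha and beta rings, with the cutting sites on the beta subunits. A 19S cap binds, unfolds and feeds the substrates, and other caps, the PA28 and PA200 activators, can take its place. Ubiquitin is passed from an activating enzyme to a UBE2 conjugating enzyme and then, with the help of a ligase, to the substrate. Cullin ligases hold exchangeable substrate receptors, among them F-box proteins and many KLHL proteins, while TRIM proteins are mostly ligases of their own. In muscle this system clears damaged sarcomere proteins and carries out much of the protein loss of atrophy.

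The array reads each gene through probes of 60 bases. The sequences below are those of 6 members on which the proteasome results turn, as the array files give them, 5′ to 3′ and in lower case because no stretch is singled out. PSMB4, PSMD6, PSMD11 and PSMD14 had high ratios in affected 1, and PSME1 and PSME2 had their lowest ratios there. By the coordinates in the files, whose genome build is not given in the sources used here, each of the 6 probes covers more genome than its own length. PSMB4 is read at chr17:63540874-63541135 (plus strand), PSMD6 at chr20:30215164-30215363 (plus), PSMD11 at chr9:43830487-43831070 (minus) and PSMD14 at chr36:9975883-9986469 (plus). PSME1 is read at chr8:7139338-7139571 (plus) and PSME2 at chr8:7143652-7143871 (minus). Each of the 6 sequences has at least 1 of 3 forward reading frames free of stop codons.
PSMB4: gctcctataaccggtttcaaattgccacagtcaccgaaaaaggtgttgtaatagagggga
PSMD6: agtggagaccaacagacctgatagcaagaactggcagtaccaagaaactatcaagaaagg
PSMD11: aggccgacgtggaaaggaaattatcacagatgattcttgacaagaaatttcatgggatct
PSMD14: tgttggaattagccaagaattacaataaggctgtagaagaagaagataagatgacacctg
PSME1: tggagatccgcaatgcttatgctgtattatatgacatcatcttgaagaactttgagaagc
PSME2: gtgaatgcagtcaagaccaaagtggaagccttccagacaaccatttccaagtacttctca

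Between 61.9% and 80.4% of the members' probes were well above background on an array, against 30.5% to 60.2% of all probes. In all, 2 dogs stood apart in the marker lists. The median of 9 fibre genes was −0.88 in affected 1 and −1.93 in escaper 2, against 0.17 to 0.99 in the other 8 dogs. Of these genes, 5 were saturated on some arrays, up to 18 of 20, which can compress ratios. Myoglobin, MB, was saturated on none and had −3.33 in affected 1 and −2.86 in escaper 2, against −0.39 to 1.75 in the others. Genes of regenerating fibres, 4 tested, had a median of −2.87 in affected 1, close to the −3.21 to −3.08 of the normal dogs and unlike the −0.34 to 1.48 of the other dystrophic dogs. Of those dogs, escaper 2 was highest, and it also led all dogs in macrophage genes (1.37, 9 tested) and matrix genes (1.83, 10 tested). Dystrophin itself, DMD, ran from −0.07 to 0.09 in normal and from −0.34 to 0.36 in dystrophic dogs at 1 probe, and so does not check the labels. Because whole muscle was measured, fewer cells of a type and less RNA per cell cannot be told apart. The proteasome medians, and many differences of named genes that either dog moved by over 1.5 times, are given with and without that dog.

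Proteasome members were high in 1 affected dog and low in the escapers. Their median ratio was −0.14, −0.36, −0.36 and −0.22 in normal 1 to 4, a mean of −0.27 ± 0.11 (SD, n = 4). It was 1.5 in affected 1 and −0.27, −0.37 and −0.37 in affected 2 to 4, a mean of 0.12 ± 0.92 (SD, n = 4). It was −0.52 in escaper 1 and −0.92 in escaper 2, a mean of −0.72 ± 0.28 (SD, n = 2). Affected 1 thus lay far above every other dog, affected 2 to 4 lay at or near the normal range, and both escapers lay below all normal dogs. The high median of affected 1 was present on both of its arrays, 1.22 with the dog in Cy5 and 1.48 in Cy3, while affected 2 on the same slide had −0.27. Over all genes tested the median ran from −0.09 to 0.02 in the 10 dogs. Over the 76 ubiquitin enzymes and ligases it ran from −0.16 to −0.04 in normal dogs, was 0.10 in affected 1, −0.10 to −0.08 in affected 2 to 4, and −0.10 and −0.12 in the escapers.

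**Figure D1:**
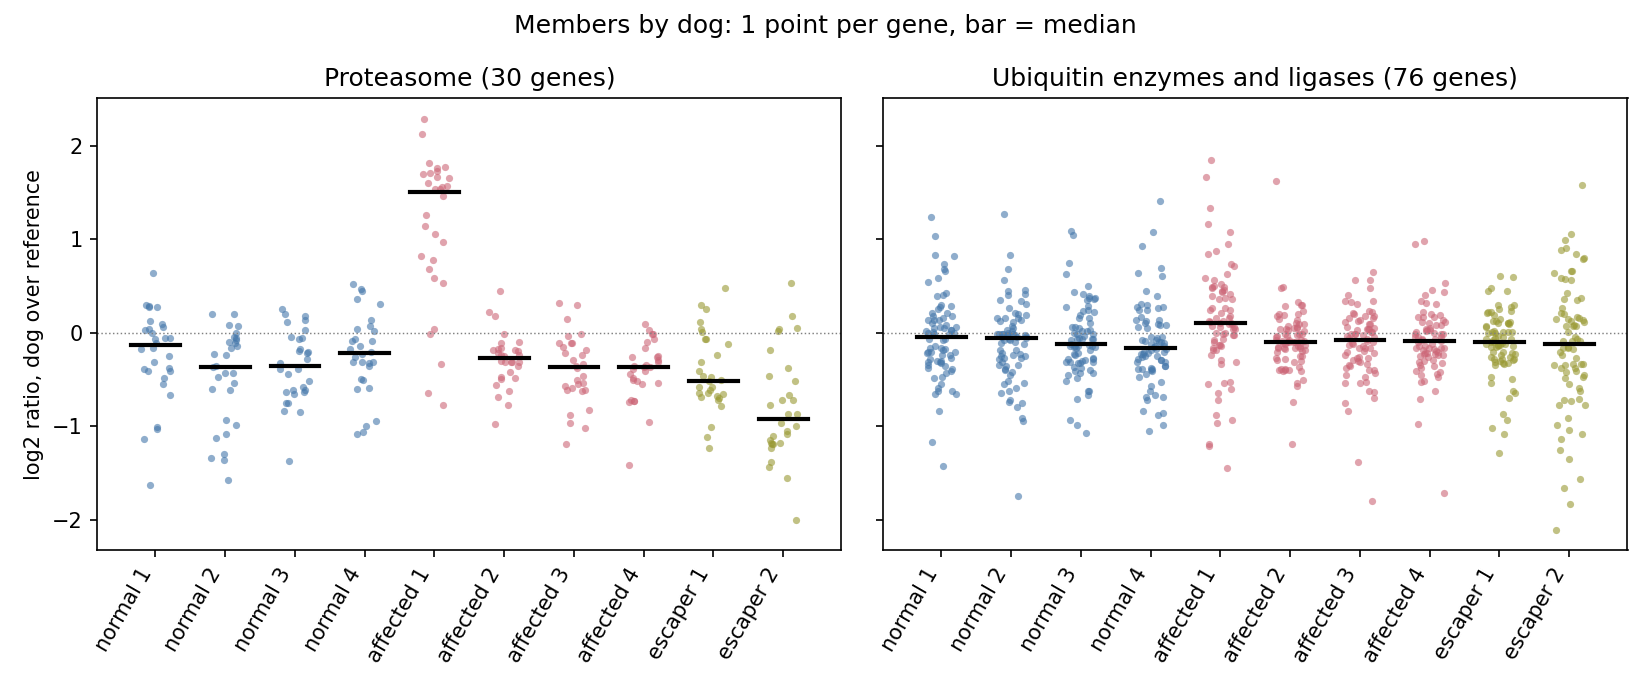
Log2 ratio of dog over reference for each tested member (points, 1 per gene) in each of the 10 dogs, with the median as a bar; the panels show the 30 proteasome members and the 76 ubiquitin enzymes and ligases. The proteasome median stands at 1.5 in affected 1 and at −0.92 in escaper 2, while the ligase medians stay between −0.16 and 0.10.

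Affected 1 was the highest of the 10 dogs in 25 of 30 proteasome members (83.3%), in 25 of 76 ubiquitin enzymes and ligases (32.9%) and in 1904 of 6120 genes (31.1%). It exceeded the mean of affected 2 to 4 by more than 1 log2 unit in 22 proteasome members (73.3%), against 11.8% of the ligases and 10.3% of all genes. The median excess was 1.42 for the 20S alpha subunits, 1.81 for the 20S beta subunits, 1.84 for the 19S ATPase group and 2.08 for the other 19S members, and 0.32 for the activators. Core and 19S cap were thus both high in this dog, with PSMB1, PSMC3IP and PSMD10 as the members of either that it did not lead. Escaper 2 was the lowest of the 10 dogs in 17 proteasome members (56.7%), in 21 ligases (27.6%) and in 1516 genes of all (24.8%). It lay below escaper 1 in 25 of 30 proteasome members (83.3%), by a median of 0.37 (log2 difference −0.37), against 48.0% of all genes. Affected 1 was the dog with low fibre and high proteasome ratios, and escaper 2 the dog with low fibre and low proteasome ratios; the part of cell content in either was not tested.

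**Figure D2:**
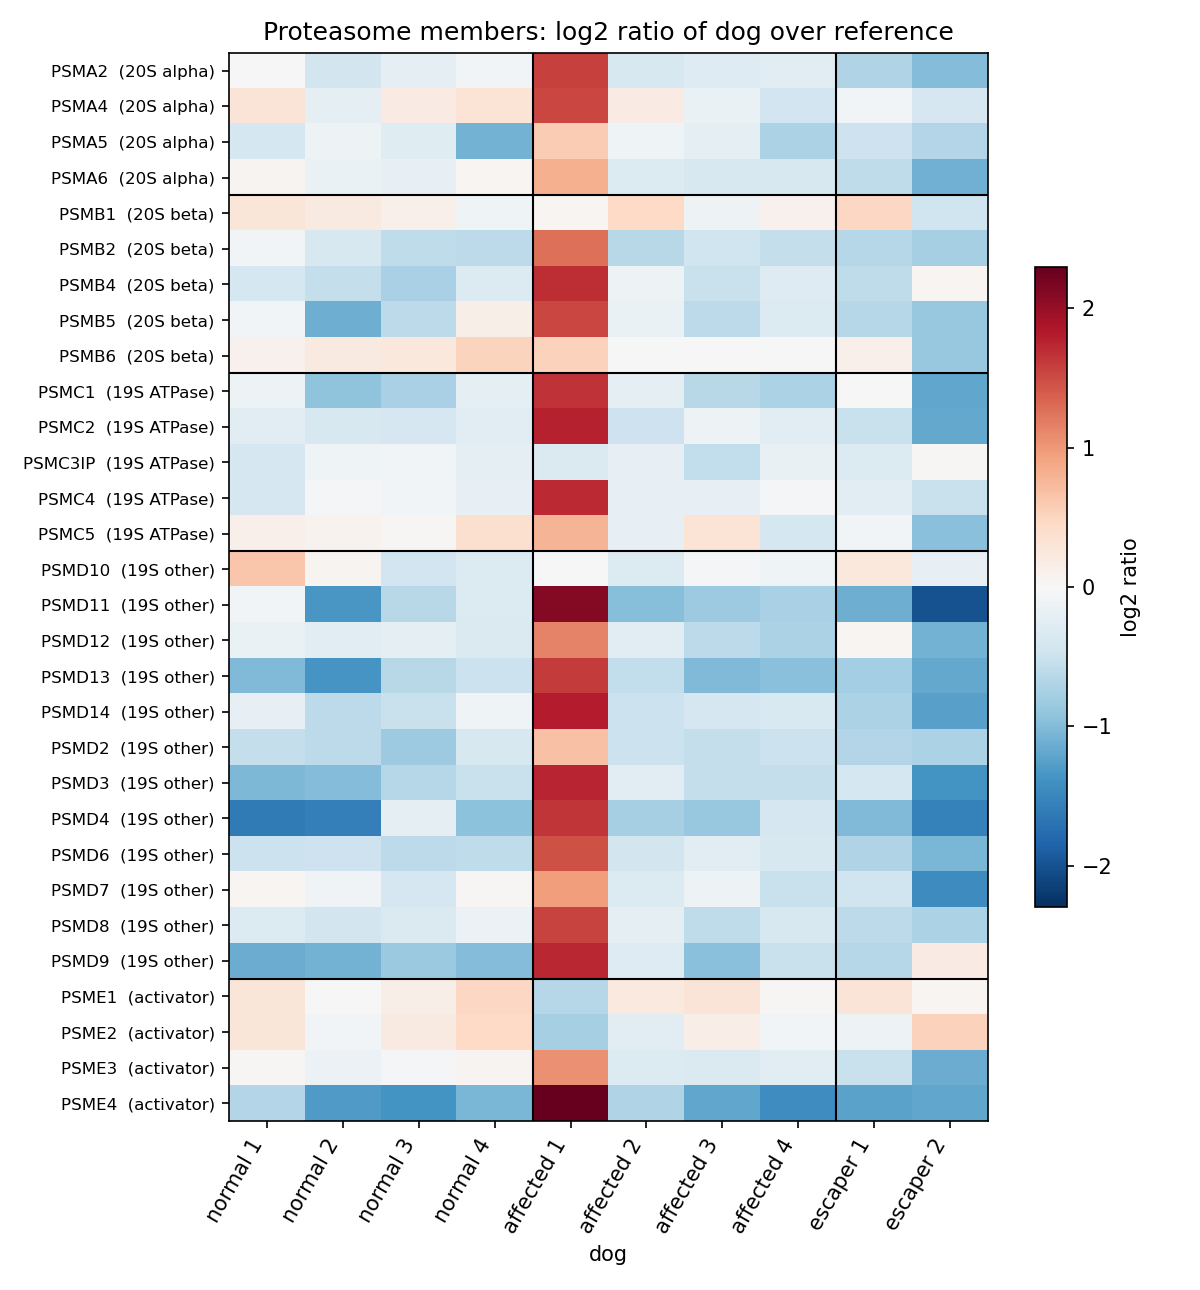
Log2 ratio of dog over reference (colour) for the 30 tested proteasome members (rows, grouped by place in the complex) in the 10 dogs (columns). The column of affected 1 is high in all but a few rows, with PSME1 at −0.65 and PSME2 at −0.77 as its lowest, and the column of escaper 2 is the lowest of its row in 17 of 30.

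No proteasome member passed an adjusted p of 0.05 in limma in any comparison. Between affected and normal dogs, 0 of 35 proteasome probes were called, with a smallest adjusted p of 0.447, against 0.0187% of all 16008 probes (3 probes). At an unadjusted p under 0.05, 0 of the 30 genes were higher and 0 lower, where 6.03% and 7.01% of all genes were. Only 1 member, PSMD6, had every affected dog above every normal dog, and 0 had every one below, against backgrounds of 6.13% and 7.24%. The median log2 difference of the 30 members was 0.36, with 23 of 30 higher in affected dogs (76.7%), beside 0.05 and 56.1% over all genes. That median rested on affected 1. Without this dog it was −0.05, and affected 2 to 4 alone differed from normal dogs by −0.29 to 0.42 over the members, with 13 of 30 higher.

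Escapers had lower proteasome ratios than normal dogs in 26 of 30 members, with a median difference of −0.25 beside 0.00 over all genes. None was called by limma (0% of all probes were), and the smallest adjusted p was 0.253 over the brightest probes of the genes and 0.201 over all 35 probes, at the second probe of PSMD7. Unadjusted p was under 0.05 for 2 members, PSMA6 and PSMB6, both lower, against 9.31% of all genes lower and 9.82% higher. Both escapers lay below all 4 normal dogs in 10 of 30 members and above them in 1, PSMD9, where the backgrounds were 16.1% and 14.6%. Without escaper 2 the median difference was −0.14, and without escaper 1 it was −0.49. Under median centring in place of loess the median of all genes moved to −0.17 and that of the proteasome to −0.69, a difference of −0.52 between them.

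Against affected dogs, escapers were lower in 26 of 30 members, with a median of −0.68 beside −0.03 over all genes. Again 0 were called by limma (0% of all probes), with a smallest adjusted p of 0.80. Unadjusted p was under 0.05 for PSMD7, PSMA6 and PSME3, all lower, where 2.6% of all genes were lower and 3.06% higher. Both escapers lay below all affected dogs in 13 members and above them in 0, against 4.84% and 3.17% of all genes. The median difference was −0.23 without affected 1, −0.54 without escaper 2 and −0.11 without both. Each pair of the 3 comparisons shares a group of dogs, so they are not independent of one another.

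The 20S alpha subunits form the outer rings of the core, through which substrates enter. The 4 tested had median differences of 0.24 in affected and −0.52 in escaper dogs against normal. Without affected 1 the median of affected minus normal dogs was −0.20, with 1 of 4 higher. PSMA6 ratios were 0.06, −0.16, −0.18 and 0.04 in normal dogs, 0.82, −0.32, −0.36 and −0.36 in affected dogs, and −0.58 and −1.11 in escapers. Affected 2 to 4 thus lay below all normal dogs, affected 1 above them, and the escapers were lowest. The means of affected and normal dogs differed by 0.01 (SE 0.27), and by −0.28 without affected 1. The escapers were 0.78 lower than normal dogs (log2 difference −0.78, SE 0.33, adjusted p = 0.253 in limma), or −0.52 without escaper 2. PSMA2 ran from −0.43 to 0.00 in normal dogs, was 1.57 in affected 1, −0.36, −0.29 and −0.26 in affected 2 to 4, and −0.69 and −1.0 in the escapers. Its affected minus normal difference of 0.34 became −0.13 without affected 1. PSMA5 was also highest in affected 1, at 0.58, but its lowest ratio was in normal 4, at −1.08.

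The 20S beta subunits carry the catalytic sites, PSMB5 the chymotrypsin-like and PSMB6 the caspase-like one. PSMB5 ratios were −0.06, −1.13, −0.61 and 0.14 in normal dogs, 1.54, −0.16, −0.61 and −0.32 in affected dogs, and −0.66 and −0.87 in escapers. Normal and affected 2 to 4 overlapped for PSMB5, and the affected minus normal difference was 0.53 (SE 0.45) with and 0.05 without affected 1. PSMB6 ratios were 0.09, 0.20, 0.25 and 0.52 in normal dogs, 0.53, −0.01, −0.01 and −0.01 in affected dogs, and 0.11 and −0.87 in escapers. Here affected 1 hardly exceeded normal 4. Affected 2 to 4 lay slightly below all normal dogs, escaper 1 within their range and escaper 2 far below it. The escaper minus normal difference of PSMB6 was −0.64 (SE 0.28, adjusted p = 0.262 in limma), and −0.15 without escaper 2. PSMB4, a beta subunit without a cutting site, was −0.75 to −0.32 in normal dogs, 1.70, −0.11, −0.51 and −0.29 in affected dogs, and −0.58 and 0.05 in escapers, so that escaper 1 lay within and escaper 2 above the normal range. PSMB2, also without a cutting site, was 1.26 in affected 1 and −0.77 to −0.07 in the other 9 dogs. PSMB1 had affected 1 at 0.04, seventh in order of the 10 dogs, and its probe was saturated on 6 of 20 arrays, which can compress ratios.

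The PSMC ATPases form the ring of the 19S cap that unfolds substrates. PSMC2 ratios were −0.25, −0.37, −0.39 and −0.26 in normal dogs, 1.77, −0.48, −0.11 and −0.25 in affected dogs, and −0.52 and −1.18 in escapers. The normal dogs lay within a narrow band, affected 1 far above it and both escapers below it. The escaper minus affected difference was −1.09 (SE 0.53, adjusted p = 0.80 in limma) and −0.25 without affected 1 and escaper 2. PSMC4 was 1.71 in affected 1 and −0.52 to −0.02 in the other dogs. PSMC5 had 0.03 to 0.36 in normal dogs, 0.78, −0.19, 0.32 and −0.41 in affected dogs and −0.07 and −0.97 in escapers. Its affected minus normal difference was −0.02 (SE 0.28), and −0.24 without affected 1. PSMC3IP, the recombination cofactor with a similar symbol, was −0.34 in affected 1, eighth in order.

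The PSMD members are the other subunits of the cap, which bind ubiquitin chains, hold the structure together and, in PSMD14, cut the chain off the substrate. Of 12 tested, 11 were higher in affected than in normal dogs and 11 lower in escapers than in affected dogs, with medians of 0.49 and −0.86. Affected 2 to 4 alone differed from normal dogs by a median of −0.01, with 6 of 12 higher. PSMD6 ratios were −0.49, −0.47, −0.61 and −0.59 in normal dogs, 1.46, −0.42, −0.24 and −0.37 in affected dogs, and −0.70 and −1.05 in escapers. The 3 groups of PSMD6 did not overlap, with affected dogs highest and escapers lowest, and the differences from normal were 0.65 (SE 0.37, adjusted p = 0.507 in limma) and −0.33 (SE 0.46, 0.724), which were 0.20 without affected 1 and −0.16 without escaper 2. PSMD14 ratios were −0.18, −0.60, −0.52 and −0.09 in normal dogs, 1.81, −0.49, −0.38 and −0.35 in affected dogs, and −0.72 and −1.24 in escapers. PSMD11, a scaffold subunit of the lid, spanned the widest range of the cap, from 2.12 in affected 1 to −2.0 in escaper 2. Its other ratios were −0.06, −1.34, −0.64 and −0.32 in normal dogs, −0.98, −0.83 and −0.74 in affected 2 to 4, and −1.12 in escaper 1. PSMD11 and PSMD14 thus placed affected 2 to 4 within the normal range.

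PSMD3, another lid subunit, differed between affected and normal dogs by 0.91 (SE 0.49, adjusted p = 0.477 in limma). Its ratios were −1.03, −0.99, −0.66 and −0.51 in normal dogs, 1.76, −0.24, −0.55 and −0.54 in affected dogs, and −0.41 and −1.38 in escapers. Without affected 1 the difference of PSMD3 was 0.36. For the chaperone PSMD9 that difference was 1.0 (SE 0.50, 0.448), and 0.42 without affected 1. PSMD9 was −1.14 to −0.85 in normal dogs, 1.73, −0.30, −0.97 and −0.52 in affected dogs, and −0.65 and 0.18 in escapers, so it was the 1 proteasome member higher in both escapers than in every normal dog. PSMD7, the partner of PSMD14 in the lid, was −0.39 to 0.04 in normal dogs, 0.97, −0.31, −0.11 and −0.51 in affected dogs, and −0.46 and −1.44 in escapers. Its escaper minus normal difference was −0.85 (SE 0.40, 0.294) at the brighter of 2 probes, −0.36 without escaper 2, and −1.29 at the other probe. Between affected and normal dogs the probes differed in sign, 0.11 at the brighter and −0.17 at the other. The brighter gave −0.21 without affected 1. The chaperone PSMD10 was −0.01 in affected 1, with its highest ratio in normal 1 (0.64).

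The activators did not share one pattern. PSME1 and PSME2 encode the interferon-inducible PA28 alpha and beta subunits, and both had their lowest ratio of the 10 dogs in affected 1. PSME1 ratios were 0.27, 0.00, 0.14 and 0.47 in normal dogs, −0.65, 0.22, 0.30 and 0.03 in affected dogs, and 0.29 and 0.04 in escapers. PSME2 ratios were 0.28, −0.06, 0.20 and 0.45 in normal dogs, −0.77, −0.25, 0.15 and −0.07 in affected dogs, and −0.12 and 0.53 in escapers. The affected minus normal difference of PSME2 was −0.46 (SE 0.23, adjusted p = 0.447 in limma), and −0.28 without affected 1. In contrast, PSME3, the nuclear PA28 gamma, and PSME4, the PA200 cap, were highest in affected 1. PSME3 ratios were −0.14 to 0.07 in normal dogs, 1.05, −0.31, −0.34 and −0.26 in affected dogs, and −0.51 and −1.15 in escapers. For PSME3 both escapers lay below all other dogs, with an escaper minus normal difference of −0.80 (SE 0.37, 0.284), or −0.48 without escaper 2. PSME4 was 2.29 in affected 1, the highest ratio of any proteasome member, and −1.42 to −0.67 in the other 9 dogs, and its affected minus normal difference of 0.85 became 0.00 without that dog.

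Some proteasome genes are named on the array only in the description of the probe and are not members by the rule. They are PSMA1, PSMA3, PSMB3, PSMB7, PSMC3, PSMC6 and PSMD1, 7 genes with 9 probes, and they were examined after the values of the members were seen. Affected 1 was the highest dog at 9 of 9 probes, at 0.43 to 2.06 with a median of 1.48, while the other 9 dogs ran from −1.55 to 0.57. Escaper 2 was lowest at 8 of 9, with a median of −1.03 beside −0.53 in escaper 1. These genes thus had the order of dogs seen in the members. ECM29, a protein that tethers core and cap, had a different order: affected 1 was at −0.02 and −0.30 at its 2 probes, and escaper 2 at −1.73 and −2.16.

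Across the 10 dogs, which share the reference RNA, the 435 pairs of proteasome members had a median correlation of 0.76. It was 0.33 without affected 1, 0.80 without escaper 2 and 0.09 without both. The median over all pairs of genes tested was 0.01, that of UBE2 enzymes 0.12 and that of F-box genes 0.09. The common variation of the proteasome members thus rested largely on these 2 dogs.

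The ubiquitin enzymes and ligases as a list stayed near the background. Between affected and normal dogs the median difference of 76 genes was 0.08, between escaper and normal dogs −0.02 and between escaper and affected dogs −0.06, and without affected 1 the first was 0.00. In limma, 0 of their 92 probes were called, with smallest adjusted p-values of 0.274, 0.189 and 0.80. At an unadjusted p under 0.05, 4 were higher and 7 lower in affected than in normal dogs, 4 higher and 8 lower in escapers than in normal dogs, and 2 higher and 2 lower in escapers than in affected dogs. The groups did not overlap for 4 higher and 6 lower, 10 higher and 15 lower, and 3 higher and 4 lower of them, shares near those of all genes given above. What follows describes single genes within this list.

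**Figure D3:**
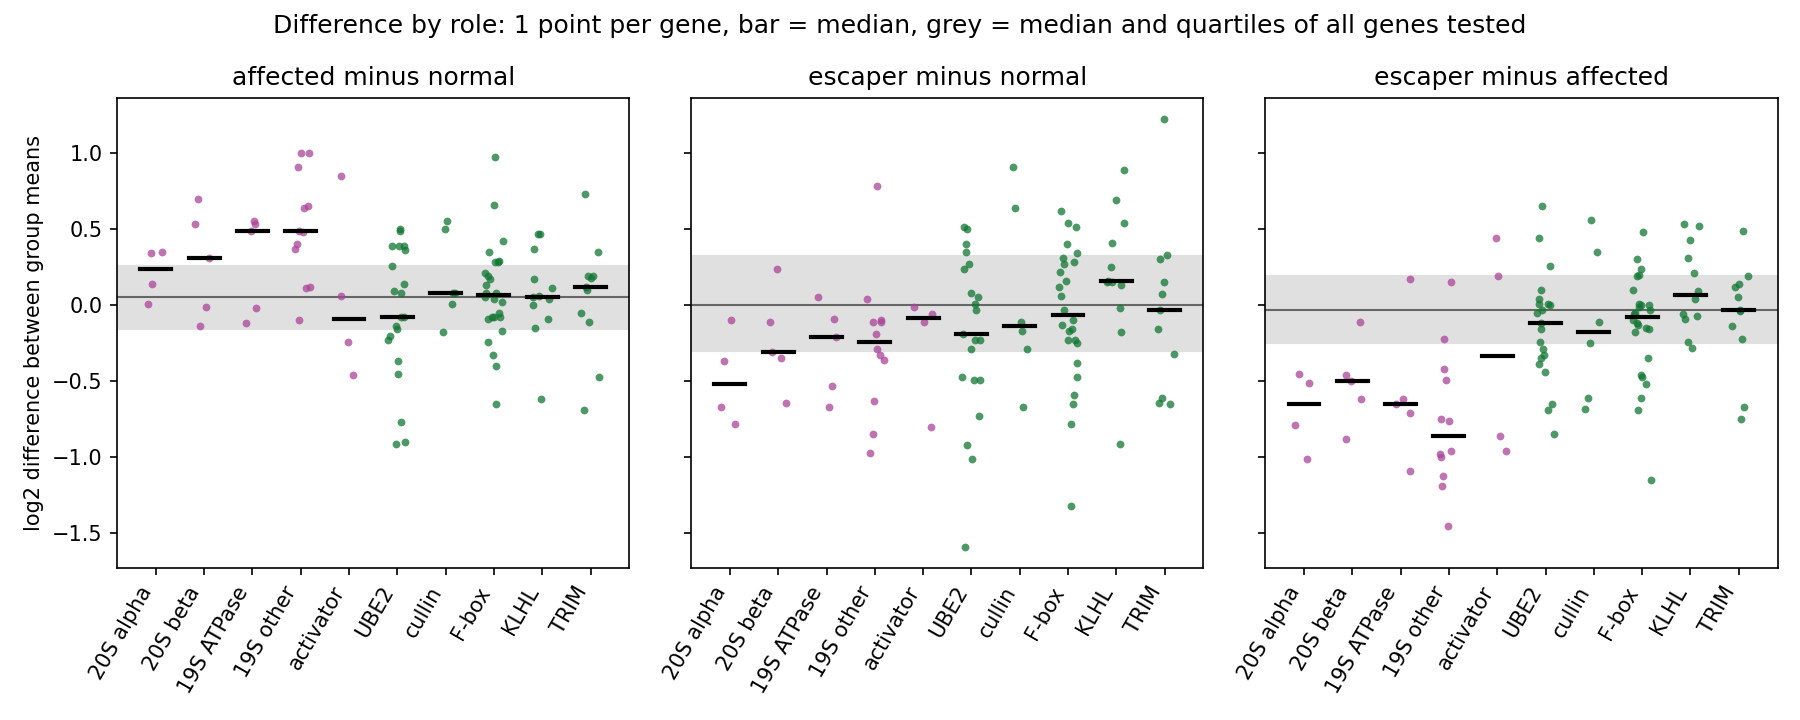
Log2 difference between group means for each tested member (points, 1 per gene) by role, with the median of each role as a bar and the median and quartiles of all genes tested in grey; the 3 panels are the 3 comparisons. The core and cap roles lie above the background in affected minus normal (medians 0.24 to 0.49) and below it in the other panels, while UBE2, cullin, F-box, KLHL and TRIM medians lie between −0.19 and 0.16. Without affected 1, the core and cap medians of affected minus normal were −0.20 to 0.02.

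The UBE2 conjugating enzymes hold the activated ubiquitin, and 21 of 23 were tested. Both escapers lay below all normal dogs in 9 of them and above in 3, beside 16.1% and 14.6% of all genes. UBE2B, the RAD6B enzyme that supports quality control and DNA repair, had ratios of 1.03, 1.27, 1.09 and 1.41 in normal dogs. The ratios of UBE2B were −0.13, 0.48, 0.65 and 0.20 in affected dogs, and 0.48 and −1.26 in escapers. All 6 dystrophic dogs thus lay below all 4 normal dogs. The differences of UBE2B were −0.90 (SE 0.33, adjusted p = 0.337 in limma) in affected dogs and −1.59 (SE 0.41, 0.189) in escapers, which is 1.87-fold and 3.01-fold lower. A second UBE2B probe gave −0.81 and −1.36. Without affected 1 the affected minus normal difference was −0.76, with an adjusted p of 0.393 in limma. Leaving out escaper 2 as well, a setting added after seeing the data, kept −0.76 and gave an escaper minus normal difference of −0.72. Over the alternatives tried, the adjusted p of UBE2B ran from 0.0269 to 0.649 in affected dogs and from 0.00162 to 1.0 in escapers.

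UBE2CBP, which binds a conjugating enzyme without being one, was also lower in all dystrophic dogs. Its ratios were 0.82, 0.68, 0.39 and 0.12 in normal dogs, −0.53, −0.25, −0.05 and −0.23 in affected dogs, and 0.02 and −1.04 in escapers. The differences of UBE2CBP were −0.77 (SE 0.24, adjusted p = 0.285 in limma) and −1.01 (SE 0.30, 0.193), the latter −0.48 without escaper 2 and −1.54 without escaper 1. UBE2F, which transfers the ubiquitin-like NEDD8 to cullins, was 0.26 to 0.37 in normal dogs, −0.24, −0.15, −0.09 and 0.19 in affected dogs, and 0.06 and −0.91 in escapers. UBE2E3 also had all dystrophic dogs at or below the lowest normal dog, with affected 1 at −1.45 and the other 5 at 0.28 to 0.56 beside 0.56 to 1.24 in normal dogs. The broad-range enzymes UBE2D1 and UBE2D2 differed from each other. UBE2D1 was −0.39 to 0.02 in normal dogs, 0.49, −0.37, −0.32 and −0.98 in affected dogs, and −0.93 and −1.35 in escapers. UBE2D2 was −0.72 to −0.41 in normal dogs, 0.10, −0.28, −0.45 and 0.17 in affected dogs, and −0.32 and 0.11 in escapers, but its second probe gave −0.26 in escapers where the brighter gave 0.51.

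Cullins are the scaffolds of the largest family of ligases, and 6 of 8 were tested. CUL1, the scaffold of the F-box ligases, was −0.94 to −0.44 in normal dogs, 0.87, −0.57, −0.48 and −0.53 in affected dogs, and −0.87 and −0.71 in escapers. It shared the high ratio of affected 1 with the proteasome, and its affected minus normal difference was 0.50 (SE 0.31, adjusted p = 0.532 in limma) with and 0.15 without that dog. CUL9 ratios were −0.84, −0.54, −0.38 and −0.36 in normal dogs, 0.36, −0.05, −0.27 and 0.05 in affected dogs, and −0.08 and 0.84 in escapers. All dystrophic dogs lay above all normal dogs for CUL9, with differences of 0.55 (SE 0.22, 0.371) and 0.91 (SE 0.27, 0.195). The latter was 0.45 without escaper 2 and 1.37 without escaper 1. Its relative CUL7 was −0.25 to 0.14 in normal dogs, −0.72, 0.23, −0.07 and 0.53 in affected dogs, and 0.23 and 0.88 in escapers, so that both escapers and 2 of the affected dogs lay above the normal range. CUL3, the scaffold of the KLHL receptors, was bright on all 20 arrays but lacked an unflagged value in every dog and was not tested.

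F-box proteins bring substrates to CUL1, and 26 of 38 were tested. FBXO22, which acts on histone demethylases and p53 complexes, was 0.25, 0.40, 0.43 and 0.27 in normal dogs, 0.06, −0.09, 0.05 and 0.03 in affected dogs, and 0.10 and −0.99 in escapers. Every dystrophic dog lay below every normal dog for FBXO22, but the size of the escaper difference, −0.78 (SE 0.25, adjusted p = 0.201 in limma), was −0.24 without escaper 2. FBXO31, a receptor that acts in arrest of the cell cycle after DNA damage, was 0.37 to 0.83 in normal dogs, 1.16, 0.15, 0.21 and −0.02 in affected dogs, and 0.01 and −1.57 in escapers. FBXL5, the iron-sensing receptor for iron regulatory proteins, was 0.73, 0.41, 0.36 and 0.24 in normal dogs, 0.00, −0.11, 0.31 and −0.05 in affected dogs, and 0.27 and −0.17 in escapers. Its affected minus normal difference was −0.40 (SE 0.16, 0.376), and 1 affected dog overlapped the normal range. FBXW2 had its high ratio in affected 1 alone, 1.85, beside −0.99 to 0.17 in the other 9 dogs. FBXO18, a DNA helicase with an F-box, was higher in both escapers (0.25 and 0.57) than in the affected dogs (−0.21 to 0.09).

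KLHL proteins are receptors of CUL3 ligases, and 12 of 24 were tested. KLHL31, which is needed for sarcomere structure in mice, was 0.83, 0.19, 0.63 and 0.64 in normal dogs, −0.55, −0.17, 0.12 and 0.40 in affected dogs, and 0.10 and −0.77 in escapers. Of the affected dogs, 3 of 4 lay below the normal range, as did both escapers, with differences of −0.62 (SE 0.26, adjusted p = 0.376 in limma) and −0.91 (SE 0.31, 0.210), the latter −0.47 without escaper 2. The KLHL31 signal cleared the background on 16 of 20 arrays. KLHL36 was −0.24 to −0.01 in normal dogs, −0.05 to 0.09 in affected dogs, and 0.21 and 0.91 in escapers. The escapers lay above all other dogs for KLHL36, by 0.69 over normal dogs (SE 0.19, 0.189), or by 0.34 without escaper 2 and 1.04 without escaper 1. KLHL28 was −0.52 to 0.06 in normal dogs and 0.03 to 0.33 in affected dogs, a difference of 0.37 (SE 0.15, 0.369), and KLHL15 was highest in escaper 2 at 0.79. KLHL38, a muscle gene, was well above background on at most 3 of 20 arrays and was not tested.

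TRIM proteins carry a RING domain, and 11 of 30 were tested. The muscle members TRIM54 and TRIM55 encode MuRF3 and MuRF2, ligases of the sarcomere, and TRIM72 encodes the membrane repair protein MG53. TRIM54 was −0.33, −0.80, −0.14 and 0.05 in normal dogs, 0.41, 0.05, −0.75 and −0.52 in affected dogs, and −0.26 and −1.66 in escapers. TRIM55 was −0.48, −0.63, −0.32 and −0.40 in normal dogs, −0.93, 0.20, −0.16 and −0.17 in affected dogs, and 0.12 and −0.38 in escapers. For TRIM55, affected 2 to 4 and escaper 1 lay above all normal dogs and affected 1 below them. TRIM72 was −1.43, −1.75, −1.07 and −0.84 in normal dogs, −0.88, −0.40, −1.80 and −0.62 in affected dogs, and −1.09 and −2.11 in escapers. The affected minus normal differences of these 3 genes were 0.10, 0.19 and 0.35 with SE of 0.35, 0.23 and 0.35. Without affected 1, those of TRIM54 and TRIM55 were −0.10 and 0.42. The escaper minus normal differences were −0.65, 0.33 and −0.32, and without escaper 2 they were 0.05, 0.58 and 0.18. TRIM63, the MuRF1 ligase, was not analysed here.

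TRIM9 is known as a ligase of neurons, and TRIM47 is another RING-type member. The ratios of TRIM9 were 0.01, 0.16, 0.16 and 0.26 in normal dogs, −0.17, −0.14, −0.54 and −0.45 in affected dogs, and −0.30 and −0.63 in escapers. All dystrophic dogs lay below all normal dogs, with differences of −0.47 (SE 0.14, adjusted p = 0.274 in limma) and −0.61 (SE 0.17, 0.189), at a dim probe that cleared the background on 7 of 20 arrays. TRIM47 was −1.17, −0.75, −0.62 and −1.05 in normal dogs, −1.19, 0.30, −0.22 and 0.46 in affected dogs, and −0.33 and 0.99 in escapers. Of the dystrophic dogs, affected 1 alone was as low as the normal dogs for TRIM47. The affected minus normal difference was 0.73 (SE 0.39, 0.473), and 1.08 without affected 1, with an adjusted p of 0.244 in limma. Leaving out escaper 2 as well, a setting added after seeing the data, kept 1.08, because escaper 2 enters this comparison only through the shared spread. In that setting TRIM47 and UBE2B were the 2 members called, where 900 probes were called in all. Over the alternatives the adjusted p of TRIM47 ran from 0.0219 to 0.729. Affected 1 had low and escaper 2 high matrix ratios as well, and their part in the TRIM47 values was not tested.

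**Figure D4:**
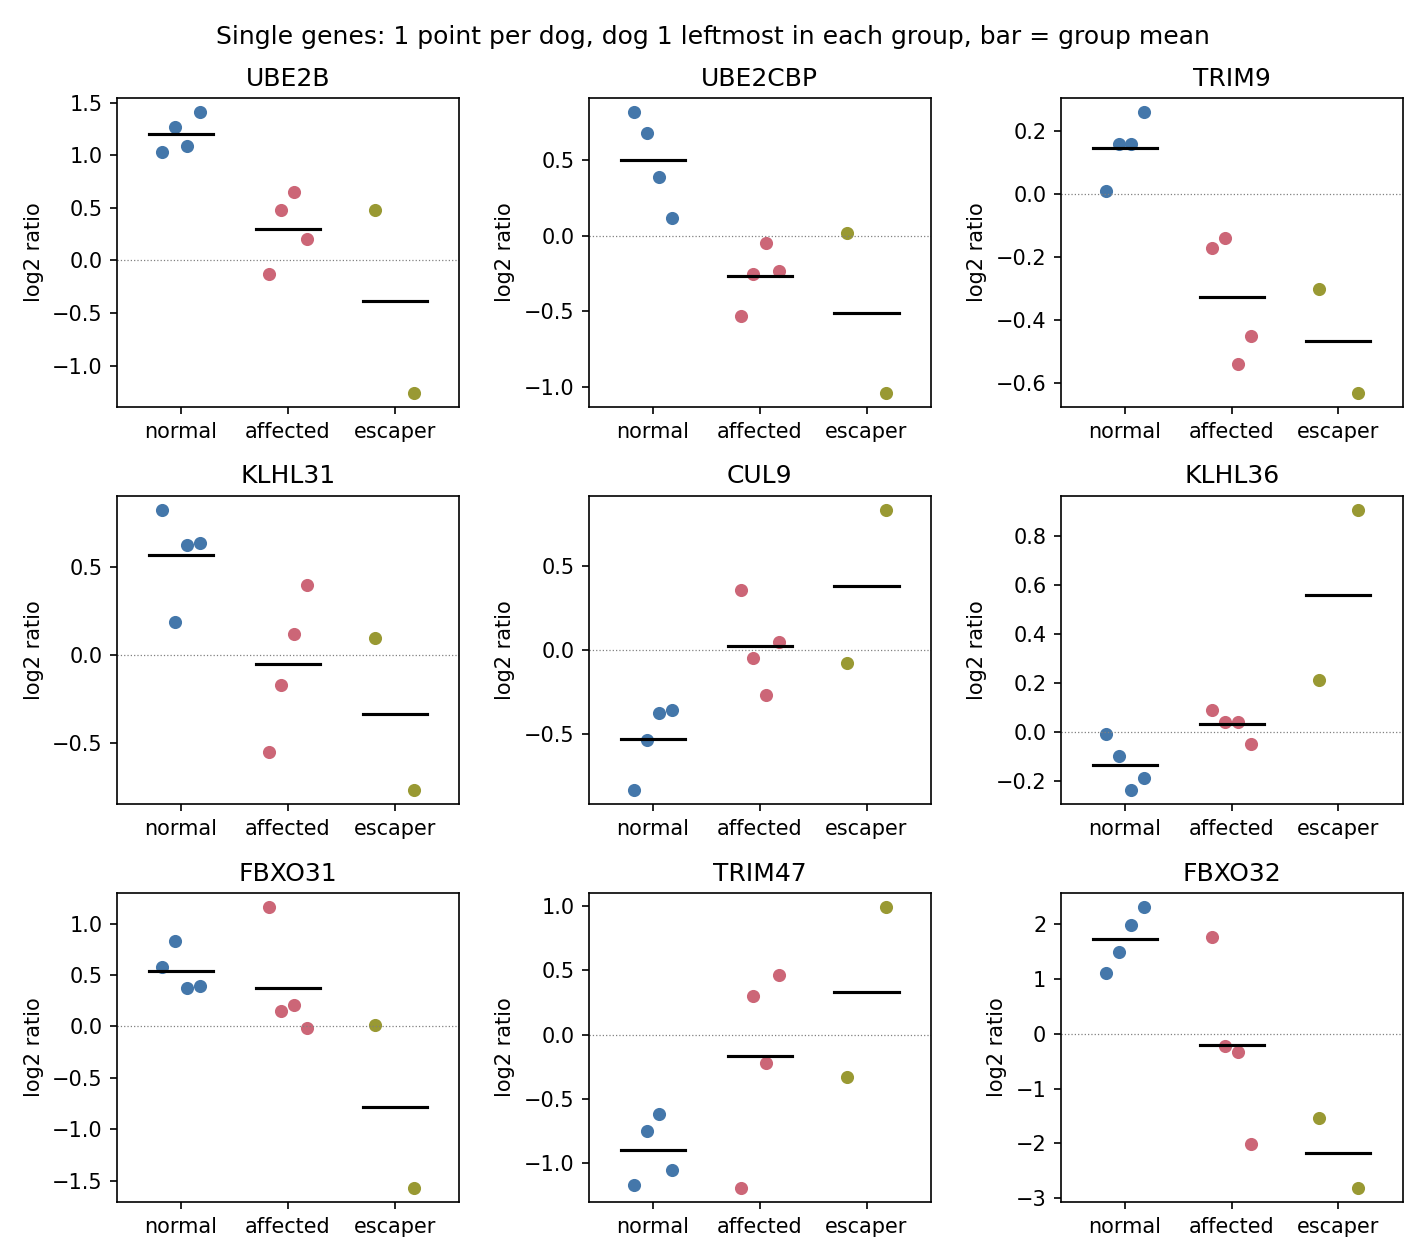
Log2 ratio of dog over reference in each dog (points, dog 1 leftmost in each group) for UBE2B, UBE2CBP, TRIM9, KLHL31, CUL9, KLHL36, FBXO31 and TRIM47, with the group mean as a bar. For UBE2B all dystrophic dogs (−1.26 to 0.65) lie below all normal dogs (1.03 to 1.41), and for TRIM47 affected 1 (−1.19) lies with the normal dogs.

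The best known atrophy ligase, FBXO32 (atrogin-1), is named only in a probe description, and so falls outside the rule; it is given here although it was chosen after its values were seen. Its 1 probe lies at chr13:24845867-24845926 and was bright on all 20 arrays. The ratios of FBXO32 were 1.11, 1.49, 1.99 and 2.31 in normal dogs, 1.77, −0.22, −0.33 and −2.01 in affected dogs, and −1.53 and −2.81 in escapers. Affected 1 lay within the normal range and the other 5 dystrophic dogs below it. The differences were −1.92 (SE 0.68, adjusted p = 0.323 in limma) in affected dogs and −3.90 (SE 0.84, 0.189) in escapers, 14.9-fold lower in the latter. Without affected 1 the first was −2.58 (0.130), and without affected 1 and escaper 2 it was −2.58 with an adjusted p of 0.0179, the lowest over the alternatives, which reached 0.642. FBXO40, a muscle F-box protein that acts on IRS1 and is a member, was 0.68, 0.31, 0.50 and 1.08 in normal dogs, −0.65, 0.49, 0.34 and −0.20 in affected dogs, and 0.44 and −0.45 in escapers, with differences of −0.65 in both, −0.43 without affected 1 and −0.20 without escaper 2. The muscle KLHL genes KLHL41 and KLHL40 appear under the older symbols KBTBD10 and KBTBD5, with affected minus normal differences of 0.05 and 0.20, and the probe of KBTBD10 was saturated on 13 arrays.

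Other genes of the pathway were read from lists of ubiquitin and activating enzymes, cullin partners, further ligases, deubiquitinases, and delivery and assembly factors. In limma, 0 of these genes were called. Of 8 ubiquitin and activating enzymes, 0 were higher and 0 lower in affected dogs at an unadjusted p under 0.05, and 1 was higher in escapers, where 9.82% of all genes were. The latter was UBA7, which activates the ubiquitin-like ISG15, at 1.69 in escaper 2, 0.21 in escaper 1 and −0.76 to −0.17 in normal dogs. Of 14 cullin partners, 1 was lower in affected and 4 in escaper dogs, beside 7.01% and 9.31% of all genes, among them RNF7, a RING partner of cullins, at 0.94 to 1.17 in normal dogs, 0.24 to 0.85 in affected dogs and 0.67 and 0.04 in escapers. The median escaper minus normal difference of this list was −0.42, beside 0.00 over all genes. Its median ratio was −0.04 in escaper 1 and −0.70 in escaper 2, beside −0.16 to 0.16 in normal dogs. Of 13 deubiquitinases, 13 were lower in escapers than in affected dogs, with a median of −0.48, where 3306 of all 6120 genes were lower with a median of −0.03. The median ratio of these 13 was 0.61 in affected 1, −0.09, −0.31 and −0.02 in affected 2 to 4, and −0.28 and −0.47 in escapers. Escaper 1 thus lay within the range of affected 2 to 4. At an unadjusted p under 0.05, 4 deubiquitinases were lower in escapers than in normal dogs, beside 9.31% of all genes. USP14, a deubiquitinase held on the 19S cap, was 1.33 in affected 1 and −0.42 in escaper 2, with the other dogs at 0.03 to 0.82. The dogs at either end were those of the cap medians, but escaper 1, at 0.38, lay within the normal range of USP14.

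Of 12 further ligases, 2 were lower in affected and 4 in escaper dogs at an unadjusted p under 0.05, beside 7.01% and 9.31% of all genes. WWP1, a HECT ligase, was singled out after its values were seen. Its ratios were 1.53, 1.48, 1.66 and 1.45 in normal dogs, −0.51, 0.55, 0.51 and 0.24 in affected dogs, and 0.71 and −0.47 in escapers. The normal dogs were within a narrow band and all dystrophic dogs below it, with differences of −1.34 (SE 0.29, adjusted p = 0.182 in limma) and −1.41 (SE 0.36, 0.189), the latter −0.82 without escaper 2. Without affected 1 the affected minus normal difference was −1.10, with an adjusted p of 0.156 in limma, and it stayed −1.10 without escaper 2 as well. Its adjusted p was 0.00555 with all arrays and the dog as a block, and reached 0.496 over the alternatives. Of 17 delivery, assembly and regulatory genes, 1 was higher in affected dogs (6.03% of all genes were), and 2 were higher and 1 lower in escapers (9.82% and 9.31%). The assembly chaperone PSMG3 was the one higher in affected dogs, at 0.17, −0.49, −0.75 and −0.58 beside −1.38 to −0.92 in normal dogs. Both genes higher in escapers were interferon-induced subunits that replace standard beta subunits, PSMB8 and PSMB9. PSMB9 was 1.13 and 2.40 in the escapers and spread from −2.34 to 0.30 in normal dogs. PSMB8 was 1.83 in escaper 2, −0.04 in escaper 1 and −0.20 to 0.13 in normal dogs, and PSMB10 was 1.0, 0.15 and −0.07 to 0.19. In escaper 2 these induced subunits were thus high where the standard PSMB6 was at −0.87 and macrophage genes were high; whether those cells were their source was not tested.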

How the data were processed

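Muscle RNA of 10 dogs was measured on 20 arrays, a dye-swapped pair for each dog. The scanner software was Agilent Feature Extraction, version 9.5.3.1. Its deposited files hold the mean intensity and local background intensity of each spot in red and green, and processed intensities, per the file headers. Log2 ratios of processed signals, dog over reference, make up the deposited value table (r = 1 with the scanner files on each array), with swapped arrays already turned and columns not centred (medians −0.16 to 0.25); it served as an alternative. Why it was left uncentred is not given in the sources used here.

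With limma 3.58.1 in R 4.3.3, signals were corrected by normexp (offset 50) and loess within arrays, where control spots had no weight. Control and outlier spots were left out, ratios were turned to dog over reference, and the 2 arrays of a dog were averaged. Probes that both arrays of 2 or more dogs showed well above background in the channel of the dog (16130) and with a value in every dog (16008) were fitted with lmFit and eBayes over the 3 groups. Benjamini-Hochberg adjustment ran over all of them at a threshold of 0.05. The need for a value in every dog was set after the files were read. A gene was read at its brightest tested probe. Of 106 tested members, 87 passed on both arrays of every dog, 4 through dystrophic dogs alone and 1 through normal dogs alone, so counts over tested members are not counts over all 154. Apart from CUL3 and UBE2E1, the 48 untested members were well above background on at most 6 of 20 arrays.

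The members and lists were chosen with earlier results of these data known. Named were members called in any comparison, the 2 with the smallest p of each role and comparison, and muscle ligases; others named are examples chosen after their values were seen. The values of a certain member are left out. Litters are not given, so it is not known whether dogs of a group were related. The p-values set group differences against the spread between these dogs, whose number limits the precision. The fit was tested on simulated data with independent noise. These held no outlying dog, slide effect or correlated genes, so the test does not bear on such features. Other lists read were markers of fibres, regenerating fibres, macrophages, matrix, endothelium, adipocytes, smooth muscle, T and NK cells, mast cells and granulocytes, and dividing cells. Endothelial markers had a median of 0.93 in escaper 2 and −0.81 to 0.04 in the other dogs, dividing-cell markers 0.45 and −0.31 to 0.09, and smooth muscle markers 0.49 and −0.30 to 0.03. Adipocyte markers ran from −0.14 to 0.31, mast cell and granulocyte markers from −0.12 to 0.51, and the 1 tested T and NK cell gene from −2.40 to 1.18. TEK and CD8A were well above background on 0 arrays.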

Additional observations from a re-analysis of the deposited data

Results flagged for a closer look

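In 12 results the value of affected 1 stood so far above the other 3 affected dogs that the gap took up more than Dixon's limit of the group's range. Chance gives a gap of that size in about 1 in 20 groups, counting either end and any dog of the group. They were the median of the proteasome members, at 1.5 in affected 1, and that of the ubiquitin enzymes and ligases, at 0.10. Among the core subunits they were PSMA2 (1.57), PSMA6 (0.82), PSMB2 (1.26) and PSMB6 (0.53). In the cap they were PSMC2 (1.77), PSMC4 (1.71), PSMD3 (1.76) and PSMD6 (1.46), and beyond it PSME3 (1.05) and CUL1 (0.87). Over all tested members, affected 1 was the high dog of such a gap in 12 of 30 proteasome genes (40%) and in 3 of 76 ubiquitin enzymes and ligases (3.95%), beside 326 of 6120 genes (5.33%). These counts take 1 dog at 1 end, so the 1 in 20 is not their chance level. Counting either end and any dog, 581 of the 6120 genes had such a gap among affected dogs and 324 among normal dogs.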

How the results depend on the processing

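Each named result was computed again with processed signals, the deposited table, median centring, other filters, the slide or the dog as a random block, and each dog left out. The slide block had an estimated correlation of −0.271 within slides. As each slide holds 1 group, a negative value narrows the SE of group differences, so this fit was not a stricter one. The sets without affected 1 and escaper 2 together were added after seeing the data. On leaving out 1 dog the proteasome median ranged over −0.05 (without affected 1) to 0.52 (affected minus normal), −0.49 to −0.14 (escaper minus normal) and −0.96 to −0.23 (escaper minus affected). The ligase median of escaper minus affected dogs was −0.16 with processed signals or the deposited table and −0.24 with median centring, under which escaper minus normal was −0.20. That of affected minus normal dogs ranged from 0.00 to 0.12 on leaving out 1 dog and was 0.00 without affected 1 and escaper 2. Members called between escaper and normal dogs numbered 2 of 106 with the slide block, where 522 of all 16008 probes were called. They numbered 8 with all arrays, a dye term and the dog as a block, where 1000 of all probes were called. On leaving out 1 dog they ranged from 0 to 19, and from 0 to 9 between escaper and affected dogs; the 19 and 9 came without escaper 1, where escaper 2 stands alone and its spread is taken from the remaining dogs. The members called between affected and normal dogs without affected 1 and escaper 2 are named above, beside the count of all probes called. The groups hold different dogs, so no pairing between groups was possible.

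Some signs turned. For FBXO40, escaper minus affected was −0.52 with processed signals or the deposited table and −0.03 with median centring, and for TRIM55 it was −0.02 there. On leaving out 1 dog, affected minus normal ranged from −0.10 to 0.28 for TRIM54 and −0.13 to 0.51 for PSMA2. Escaper minus normal ranged from −0.18 to 0.07 for PSME1, −1.36 to 0.05 for TRIM54 and −0.83 to 0.18 for TRIM72. Escaper minus affected ranged from −0.44 to 0.44 for FBXO40, −0.12 to 0.39 for TRIM55, −1.56 to 0.18 for UBE2B and −0.72 to 0.15 for KLHL31. Without affected 1 and escaper 2, affected minus normal was −0.13 for PSMA2 and −0.10 for TRIM54, and escaper minus normal was 0.07 for PSME1, 0.05 for TRIM54 and 0.18 for TRIM72. Escaper minus affected, which over all dogs was −0.65 for PSMC5, −0.50 for PSMB6, −0.75 for TRIM54 and −0.69 for UBE2B, was then 0.02, 0.12, 0.15 and 0.04 for these 4, and −0.06 for PSME2 and 0.00 for CUL7. The causes were not tested.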
